A study of Mus musculus with 62 samples.

Results

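The muscle described here is the gastrocnemius, a calf muscle of mostly fast fibres, of mice that carried cachectic melanoma cells (CAC), set against that of mock-injected mice (Con) 4 weeks after injection. The comparison took 10 of the 62 libraries of the series, 5 CAC and 5 Con, by their labelled group and week. The mice were female and 2 months old when injected, and each library is labelled as a biological replicate. For context, 5 libraries of the same week from mice given non-cachectic melanoma cells (NCAC) and the 5 CAC and 5 Con libraries of 2 weeks and of 6 weeks were used. The series design describes athymic nude mice (NCI Ath/nude), whereas the sample labels name C57BL6/J, and which strain was used is not known here. Athymic nude mice lack a thymus and with it most T cells. The labels name neither melanoma line, and tumour size, body weight and muscle weight were not analysed here. Libraries were made from poly(A) RNA with a stranded kit and sequenced on a NovaSeq 6000. Each value is in TPM, a gene's share of a library's transcripts after division by transcript length, scaled to the same total in every library, so a gene's TPM falls when others take more.

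Cachexia is a tumour-driven loss of muscle and fat that feeding does not fully reverse. In muscle, cytokines of the interleukin-6 family bind a receptor that contains gp130 (Il6st); Janus kinases on it phosphorylate STAT3, which enters the nucleus and turns on its own brake, Socs3, together with acute phase genes. Wasting muscle is also known to raise the ubiquitin ligases MuRF1 (Trim63) and atrogin-1 (Fbxo32) under FoxO factors and glucocorticoids, and to make metallothioneins, small proteins that bind zinc and copper.

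The promoters of Socs3, of both metallothioneins and of Cish, another cytokine feedback gene, are shown first. They hold matches to short patterns close to the letters that STAT factors or the zinc-sensing factor MTF-1 are known to bind. Each runs from 250 bases before to 50 bases after the transcript start, 5′ to 3′ on the gene's strand, from RefSeq on GRCm38.p6. In Socs3 (chr11:117969317-117969616, minus strand) and Cish (chr9:107296409-107296708, plus strand), capitals mark TTCNNNGAA, a palindrome that reads alike on both strands. In Mt1 (chr8:94178839-94179138, plus strand) and Mt2 (chr8:94172368-94172667, plus strand), capitals mark TGCNCNC on either strand.
Socs3: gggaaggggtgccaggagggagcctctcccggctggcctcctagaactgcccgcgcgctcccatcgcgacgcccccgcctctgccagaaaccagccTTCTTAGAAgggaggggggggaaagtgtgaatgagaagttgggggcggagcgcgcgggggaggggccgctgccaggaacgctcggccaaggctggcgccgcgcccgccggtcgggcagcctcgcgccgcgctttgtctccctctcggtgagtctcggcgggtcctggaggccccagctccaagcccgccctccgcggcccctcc
Cish: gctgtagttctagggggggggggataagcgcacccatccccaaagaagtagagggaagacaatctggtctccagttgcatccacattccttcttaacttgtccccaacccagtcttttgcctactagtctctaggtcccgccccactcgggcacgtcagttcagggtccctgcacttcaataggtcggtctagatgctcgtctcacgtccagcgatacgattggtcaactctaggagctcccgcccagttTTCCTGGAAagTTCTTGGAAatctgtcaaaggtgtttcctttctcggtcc
Mt1: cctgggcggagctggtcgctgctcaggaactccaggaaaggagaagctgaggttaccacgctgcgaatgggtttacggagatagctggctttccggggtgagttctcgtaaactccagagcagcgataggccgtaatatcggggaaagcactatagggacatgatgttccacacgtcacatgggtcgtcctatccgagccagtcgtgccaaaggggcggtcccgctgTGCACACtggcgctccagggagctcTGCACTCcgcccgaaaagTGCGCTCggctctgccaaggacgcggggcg
Mt2: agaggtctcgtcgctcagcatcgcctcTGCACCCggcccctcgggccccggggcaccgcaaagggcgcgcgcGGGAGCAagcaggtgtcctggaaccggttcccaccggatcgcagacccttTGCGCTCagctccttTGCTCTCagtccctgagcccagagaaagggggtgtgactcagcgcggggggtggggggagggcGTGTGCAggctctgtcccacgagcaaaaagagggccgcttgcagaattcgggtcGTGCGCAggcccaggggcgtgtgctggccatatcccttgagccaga
The Socs3 window holds 1 match, starting 154 bases before the transcript start, and the Cish window holds 2. Such a match occurs in 8.3% of the 32851 promoter windows of 27025 genes, and 2 or more occur in 0.457%. Among the STAT3 feedback and target genes, 4 of 15 windows hold it, against 0 of 18 windows of the receptors, kinases and factors. The 15 windows belong to 12 genes, and the 4 are those of Socs3, Cish and Bcl6, with Bcl6 counted more than once. Windows without a match, such as those of Stat3, Junb and Bcl3, are not shown. The Mt1 window holds 3 matches of TGCNCNC and the Mt2 window holds 6. In all windows 3 or more occur in 7.10%, and in windows of tested genes in 10.3%. TGCNCNC is a loose pattern, with a match in 51% of all windows and in 60.3% of those of tested genes. A match says only that the letters are there.

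At 4 weeks, 3134 of 12364 tested genes passed an adjusted p of 0.05 (25.3%): 2840 were higher in CAC (23.0%) and 294 lower (2.38%). Most of these changes were small. The median called rise was 1.32-fold on the TPM + 1 scale, and 148 of the rises reached 2-fold; among the falls 7 did. In 1923 genes every CAC library lay above every Con library (15.6%), and in 157 every CAC library lay below (1.27%). The median log2 change of all tested genes was 0.17 rather than 0, so a gene with that change is merely average. The calls rest on a spread estimated over all 12 groups of the series. When only CAC and Con of this week were fitted, 1056 genes were higher and 104 lower. After each library was rescaled to a common median ratio (rescaling), 919 genes were higher (7.43%) and 964 lower (7.80%), and the median change was 0.01. Rises outnumber falls as deposited but not after rescaling, so rescaled counts stand beside most lists. A rise or fall "by" a value below is on the log2(TPM + 1) scale. In bulk muscle, fewer cells of a type and less RNA per cell cannot be told apart.

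Library CAC replicate 2 stood apart from the other 4. Its value lay outside theirs in 75.3% of genes, against 23.5% to 37.9% for each of the other CAC libraries. The median of all genes in it lay 0.40 above the Con mean on the log2 scale, against 0.07 to 0.13 in the others. On the first principal component of the 15 libraries of this week (42.8% of variance) it scored 66.6, the other CAC libraries 5.33 to 25.5, NCAC −16.5 to −4.67 and Con −18.1 to −4.79. Genes of the mitochondrial genome held 24.5% of its TPM, against 28.05% to 32.6% in the other CAC libraries and 30.4% to 36.5% in Con. Without it, 707 genes were higher (5.72%) and 51 lower (0.412%), 6.13% in all, and 757 of these 758 were also called with it. Of the 2840 rises, 561 were called both after rescaling and without CAC replicate 2; of the 294 falls, 51 were. The SD of log2 values was larger in CAC than in Con for 74.7% of genes, and for 49% without CAC replicate 2. The counts without that library stand beside the lists with called genes.

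STAT3 itself was the gene of lowest p in the whole table. Stat3 stood at 34.2, 52.4, 42.9, 44.3 and 41.6 TPM in CAC, against 11.6, 11.9, 10.3, 11.3 and 10.6 TPM in Con. The groups were far apart and every CAC library was high (log2 change 1.85 ± 0.13, adjusted p = 6.86e-16). SE and p come from limma throughout, with n = 5 per group and a spread estimated over all 12 groups of the series. In a limma fit of only the groups compared, Stat3 had adjusted p = 5.87e-06. Socs3, whose product blocks the receptor's Janus kinases, stood at 40.3, 49.2, 69.97, 61.4 and 59.8 TPM in CAC, against 4.21, 2.22, 2.57, 2.0998 and 1.71 TPM in Con. It was lowest in CAC replicate 1 and highest in replicate 3, with no overlap (log2 change 4.02 ± 0.42, adjusted p = 9.06e-10). Without CAC replicate 2 the changes were 1.77 at adjusted p = 3.13e-14 for Stat3 and 4.06 at adjusted p = 9.47e-09 for Socs3.

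**Figure D1:**
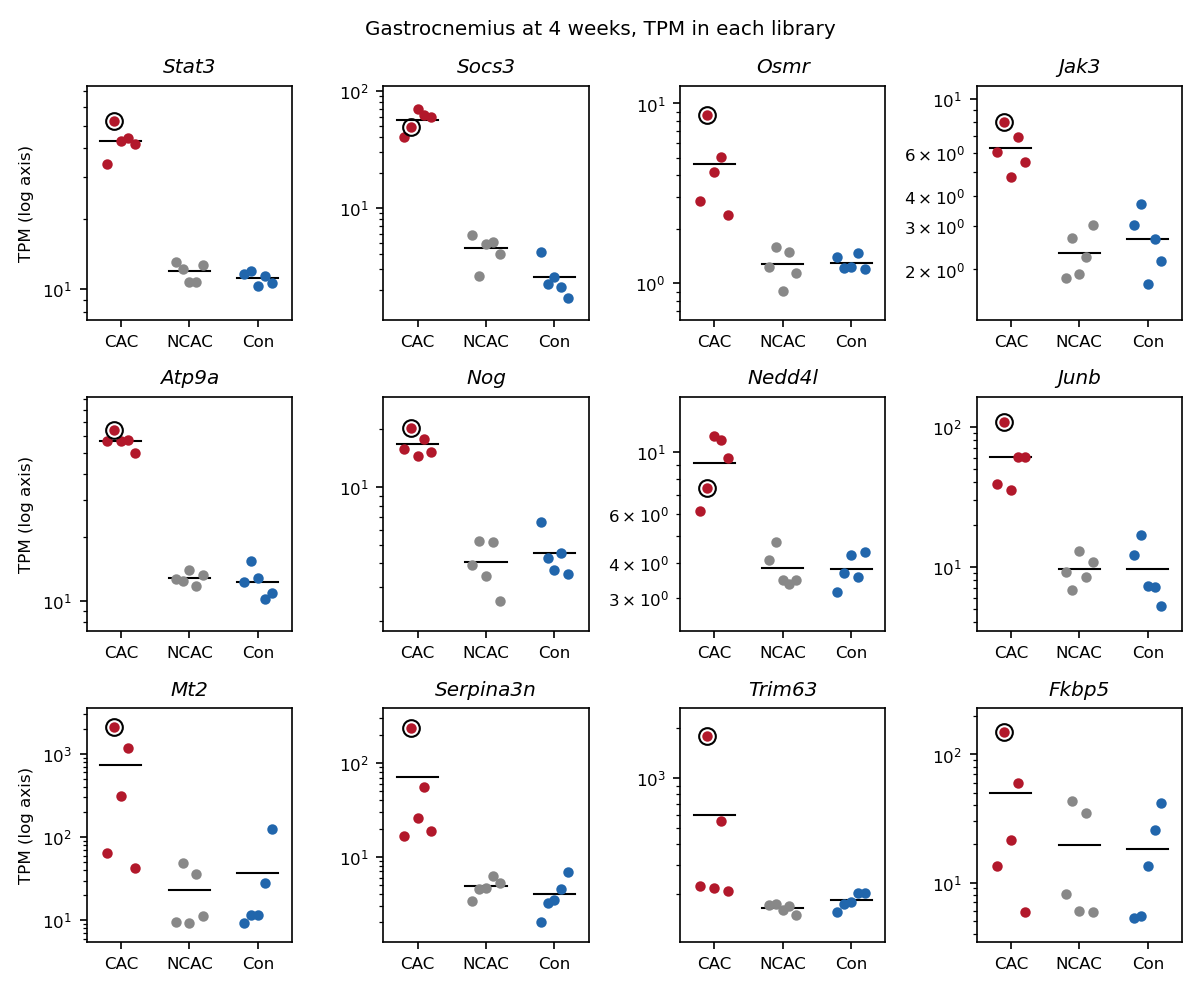
TPM of 12 genes in each library at 4 weeks (log axes), in CAC, NCAC and Con; lines are group means and the circled point is CAC replicate 2. Stat3, Socs3, Atp9a and Nog separate CAC from both other groups in every library, whereas Trim63 and Fkbp5 are high chiefly in CAC replicates 2 and 4.

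On the receptor side, of 16 receptors, kinases and factors, 7 rose and 0 fell, with a median log2 change of 0.38 beside 0.17 for all genes; after rescaling 4 rose, and without CAC replicate 2 5 did. The receptor for oncostatin M, Osmr, stood at 2.88, 8.597, 4.18, 5.02 and 2.39 TPM in CAC, against 1.397, 1.21, 1.24, 1.47 and 1.201 TPM in Con. Its lowest CAC library lay above every Con library (log2 change 1.19 ± 0.19, adjusted p = 3.6e-05). The shared signalling chain gp130 (Il6st) rose by 0.60 (adjusted p = 0.000373), and its lowest CAC value of 38.2 TPM was just above the highest Con value of 37.7 TPM. The kinase Jak3, known mainly from lymphocytes, stood at 6.07, 8.02, 4.796, 6.98 and 5.49 TPM in CAC, against 3.03, 3.71, 1.74, 2.66 and 2.17 TPM in Con. That is a rise in each library with no overlap (log2 change 1.00 ± 0.22, adjusted p = 0.00144). Jak1 rose by 0.44 (adjusted p = 0.00141), though not once rescaled (0.25 at adjusted p = 0.0997). The interleukin-6 receptor itself, Il6ra, stood at 1.68, 22.1, 2.47, 8.88 and 1.26 TPM in CAC, against 1.302, 1.16, 2.41, 3.36 and 5.08 TPM in Con. It was high in CAC replicates 2 and 4 and low in the rest, and was not called (log2 change 0.68 ± 0.46, adjusted p = 0.262). The ligands Il6 and Osm were scarcely present in muscle, under the filter for testing. Il6 averaged 0.0573 TPM in CAC and 0.0197 TPM in Con, and Osm 0.0231 TPM in CAC and 0.0213 TPM in Con. Not all cytokine ligands were so low, and Ctf1 passed the filter.

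Among 16 feedback and target genes of STAT3, 7 rose and 0 fell (median log2 change 0.56), 5 after rescaling and 3 without CAC replicate 2. Beside Socs3, the NF-kB regulator Bcl3 stood at 2.97, 6.94, 2.28, 5.13 and 3.01 TPM in CAC, against 1.68, 1.01, 0.592, 0.837 and 0.882 TPM in Con. Every CAC library was above every Con library (log2 change 1.28 ± 0.25, adjusted p = 0.000277). Cebpd, a transcription factor of the acute phase, spread far more: it stood at 26.2, 282, 61.01, 112 and 19.2 TPM in CAC, against 6.25, 14.4, 11.6, 39.4 and 67.8 TPM in Con. CAC replicates 2 and 4 and Con replicates 4 and 5 were high, the groups overlapped, and the call (log2 change 1.63 ± 0.57, adjusted p = 0.0308) was lost without CAC replicate 2 (1.09 at adjusted p = 0.233) and after rescaling (1.43 at adjusted p = 0.0688). Cish stood at 5.505, 6.28, 15.3, 41.6 and 26.01 TPM in CAC, against 6.68, 1.81, 10.2, 6.298 and 3.38 TPM in Con. It was high in CAC replicates 4 and 5 and low in 1 and 2, and was not called (log2 change 1.37 ± 0.59, adjusted p = 0.0752).

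Of 9 cytokine ligands tested, 2 rose and 1 fell, a share of rises near the 23.0% of all genes. After rescaling 2 rose and 2 fell, and without CAC replicate 2 2 rose and 0 fell. Csf1, the growth factor of macrophages, stood at 7.83, 8.9996, 8.49, 10.3 and 10.7 TPM in CAC, against 5.36, 4.71, 4.001, 3.07 and 4.19 TPM in Con. The alarmin Il33 stood at 5.61, 12.3, 7.32, 6.39 and 7.46 TPM in CAC, against 3.24, 3.17, 2.85, 3.08 and 4.54 TPM in Con. Both were higher in every CAC library (log2 change 0.97 ± 0.19, adjusted p = 0.000451, and log2 change 0.98 ± 0.24, adjusted p = 0.00294, in that order) and remained called without CAC replicate 2. Il15, a muscle-derived cytokine, fell by 0.53 (adjusted p = 0.0481), a call lost without CAC replicate 2 (−0.48 at adjusted p = 0.168). The call was also lost without CAC replicate 3 or 5, or Con replicate 1, 3, 4 or 5.

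Some acute phase genes, best known from liver, rose in the muscle RNA. Of 19 tested, 7 rose and 0 fell (median log2 change 0.60), 7 after rescaling and 4 without CAC replicate 2. The list's median for NCAC against Con was 0.41, with no gene called in that comparison. Against NCAC, 4 were higher and 3 lower in CAC (median 0.16). The summed TPM was 105 to 1367 in CAC, 38.1 to 169 in NCAC and 44.6 to 82.4 in Con. Haptoglobin, Hp, which captures free haemoglobin, stood at 20.2, 808, 57.9, 80.4 and 58.5 TPM in CAC, against 7.44, 7.57, 4.67, 4.695 and 12.998 TPM in Con. CAC replicate 2 was far above the next library, and the lowest CAC library still lay above every Con library (log2 change 3.44 ± 0.72, adjusted p = 0.000779). Serpina3n, a protease inhibitor, stood at 16.7, 234, 25.999, 55.5 and 18.8 TPM in CAC, against 2.02, 3.25, 3.48, 4.49 and 6.88 TPM in Con, with CAC replicates 2 and 4 highest and no overlap (log2 change 3.13 ± 0.56, adjusted p = 0.00013). Lbp, which binds bacterial lipopolysaccharide, stood at 12.8, 44.5, 12.5, 18.02 and 16.4 TPM in CAC, against 4.63, 3.83, 2.53, 3.94 and 5.04 TPM in Con (log2 change 1.99 ± 0.34, adjusted p = 7.71e-05). All 3, and Lrg1 (log2 change 1.32 ± 0.31, adjusted p = 0.0021), remained called without CAC replicate 2. Lcn2, an iron-sequestering protein, stood at 1.18, 60.8, 2.8996, 2.71 and 0.821 TPM in CAC, against 2.38, 0.331, 0.463, 0.466 and 1.05 TPM in Con. It was high in CAC replicate 2 alone and was not called (adjusted p = 0.0886).

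Complement was the list with the largest share of rises among the role lists: 17 of 23 tested components and regulators rose and 0 fell (median log2 change 0.88), 12 after rescaling and 9 without CAC replicate 2. C4b, of the classical pathway, stood at 17.4, 79.4, 20.1, 22.3 and 32.5 TPM in CAC, against 3.36, 4.54, 2.04, 2.38 and 3.42 TPM in Con. The central component C3 stood at 55.6, 181, 51.6, 56.8 and 82.9 TPM in CAC, against 20.1, 19.6, 17.4, 15.5 and 23.6 TPM in Con. The C1 inhibitor Serping1 stood at 133, 190.2, 129, 131 and 156 TPM in CAC, against 53.4, 47.8, 46.8, 40.8 and 74.3 TPM in Con. All 3 were higher in every CAC library, C4b by 2.89 (adjusted p = 4.53e-06), C3 by 1.93 (adjusted p = 0.000221) and Serping1 by 1.49 (adjusted p = 5.17e-05), and all 3 remained called without CAC replicate 2. The C1q chains C1qa and C1qc, made mostly by macrophages, rose by 1.67 (adjusted p = 0.0011) and 1.72 (adjusted p = 0.000805).

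Of 22 chemokines and receptors tested, 9 rose and 0 fell (median log2 change 0.43), 8 after rescaling and 5 without CAC replicate 2. Ccl8, a monocyte attractant, stood at 25.9, 64.2, 20.4, 20.9 and 76.5 TPM in CAC, against 0.569, 0.754, 1.29, 0.46 and 0.759 TPM in Con. It was highest in CAC replicates 5 and 2 and at most 1.29 TPM in any Con library (log2 change 4.38 ± 0.78, adjusted p = 0.000117). Cxcl14 stood at 77.9, 208, 111, 132 and 98.3 TPM in CAC, against 27.9, 28.3, 32.4, 41.5 and 47.7 TPM in Con, with every CAC library high (log2 change 1.74 ± 0.32, adjusted p = 0.000139). Cxcl13, an attractant of B cells, stood at 0.869, 28.8, 1.06, 3.28 and 0.64 TPM in CAC, against 0.843, 0.293, 0.264, 0.655 and 2.45 TPM in Con. Only CAC replicate 2 was far up, and it was not called (log2 change 1.11 ± 0.56, adjusted p = 0.13).

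Markers of macrophages and monocytes rose as well. C1qa, C1qb and C1qc are members of both this list and the complement list, so the 2 lists are not independent. The part of these cells in the rises of complement and chemokines was not tested. Of 18 markers tested, 14 rose and 0 fell (median log2 change 1.12), 14 after rescaling and 10 without CAC replicate 2. Their summed TPM was 240.1 to 442 in CAC, 114 to 306 in NCAC and 72.95 to 153 in Con, so every CAC library lay above every Con library. The scavenger receptor Mrc1 stood at 5.51, 11.3, 5.41, 5.31 and 6.58 TPM in CAC, against 1.71, 2.201, 2.09, 1.25 and 3.33 TPM in Con (log2 change 1.31 ± 0.32, adjusted p = 0.00289), and the Fc receptor Fcgr3 rose by 1.32 (adjusted p = 0.00176). The defining marker Adgre1 (F4/80) was low in both groups, at 1.802, 2.32, 1.32, 2.03 and 2.95 TPM in CAC, against 0.687, 0.356, 0.732, 0.319 and 0.822 TPM in Con, but did not overlap (log2 change 0.95 ± 0.26, adjusted p = 0.00857). Neutrophil markers did not move together: 0 of 5 tested were called, their sum was 2.66 to 12.1 TPM in CAC and 1.62 to 106 TPM in Con, and the highest value was in Con replicate 1.

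**Figure D2:**
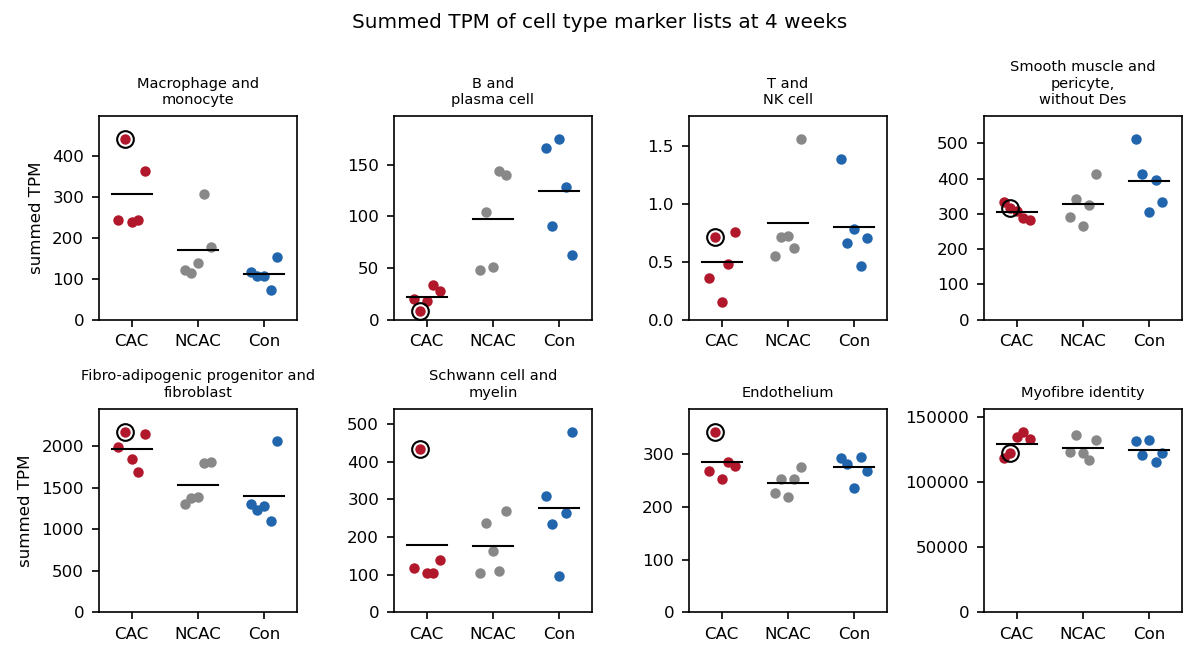
Summed TPM of 8 cell type marker lists in each library at 4 weeks, in CAC, NCAC and Con, with axes from 0; lines are means and the circled point is CAC replicate 2. Against Con, macrophage markers are high and B cell markers, mostly Ighm, are low in every CAC library. Schwann cell markers are highest, within their groups, in CAC replicate 2 and in Con replicate 5.

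The immunoglobulin gene Ighm fell while macrophage genes rose. Ighm, the heavy chain of IgM, stood at 16.5, 6.47, 16.9, 33.7 and 24.7 TPM in CAC, against 141, 87.6, 172, 126 and 61.4 TPM in Con. It was lower in every CAC library than in any Con library (log2 change −2.60 ± 0.50, adjusted p = 0.000308), also without CAC replicate 2 (−2.28 at adjusted p = 0.00512). It was 1 of only 2 B and plasma cell genes above the filter, and the other was not called. None of the 12 T and NK cell genes passed the filter, and their sum stayed within 0.156 to 0.758 TPM in CAC and 0.464 to 1.38 TPM in Con. The pigment cell genes Tyr, Dct and Mlana were likewise below the filter, with Tyr at 0 in all 10 libraries, and the sum of melanocyte and tumour markers was 8.27 to 20.98 TPM in CAC and 8.38 to 17.8 TPM in Con.

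The metallothioneins were uneven across libraries. Mt1 stood at 105, 2241, 309, 989 and 61.2 TPM in CAC, against 31.5, 30.6, 32.9, 58.6 and 145 TPM in Con. Mt2 stood at 65.3, 2086, 313, 1188 and 42.3 TPM in CAC, against 9.24, 11.4, 11.5, 27.8 and 126 TPM in Con. In both genes CAC replicates 2 and 4 were highest, replicates 1 and 5 lowest, and Con replicate 5 lay above CAC replicates 1 and 5, so the groups overlapped. Mt1 rose by 2.77 (adjusted p = 0.00226) and Mt2 by 3.71 (adjusted p = 0.00166); without CAC replicate 2 the changes were 2.09 at adjusted p = 0.0373 and 3.00 at adjusted p = 0.0244. In a fit of only the groups compared neither was called (adjusted p = 0.0663 for Mt1 and adjusted p = 0.0543 for Mt2). In the list of metallothioneins and zinc transporters, 7 of 14 rose and 0 fell (median log2 change 0.32), 4 rose and 1 fell after rescaling, and 4 rose without CAC replicate 2. The zinc importer Slc39a1 had the lowest p of the list, at 57.1, 56.2, 57.1, 54.2 and 60.6 TPM in CAC, against 45.3, 40.8, 39.4, 36.5 and 41.6 TPM in Con. Its 5 CAC libraries were nearly alike and all above Con (log2 change 0.48 ± 0.10, adjusted p = 0.000853). Slc30a1, a zinc exporter, rose by 0.62 (adjusted p = 0.00615). The importer Slc39a14, studied in wasting muscle, stood at 2.02, 17.6, 2.79, 7.19 and 2.06 TPM in CAC, against 2.02, 2.03, 1.998, 2.26 and 2.24 TPM in Con, up in CAC replicates 2 and 4 and not called (log2 change 0.84 ± 0.40, adjusted p = 0.104). Of 14 genes of iron and oxygen response, 5 rose and 0 fell, beside 23.0% of all genes higher. After rescaling 3 rose, and without CAC replicate 2 2 did. The metalloreductase Steap4 rose by 1.13 (adjusted p = 0.000149), Hif1a by 0.68 (adjusted p = 0.000269) and the ferritin light chain Ftl1 by 0.64 (adjusted p = 0.004). Of these, Ftl1 lost its call when CAC replicate 2 was left out (adjusted p = 0.0616).

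Among 20 ubiquitin ligases tied to atrophy, 9 rose and 0 fell (median log2 change 0.34), 3 after rescaling and 3 without CAC replicate 2. The HECT-domain ligases Nedd4l and Nedd4 kept their call under both. Nedd4l, a regulator of membrane channels, stood at 6.14, 7.45, 11.4, 11.1 and 9.58 TPM in CAC, against 3.15, 3.69, 4.28, 3.57 and 4.37 TPM in Con. CAC replicates 3 and 4 were highest, replicate 2 was not, and the groups did not overlap (log2 change 1.05 ± 0.14, adjusted p = 1.06e-06). The best known atrophy ligases behaved otherwise. Trim63 stood at 223, 1799, 218, 553 and 206 TPM in CAC, against 156, 172, 179, 202 and 203 TPM in Con. Fbxo32 stood at 118, 846, 103, 261 and 101 TPM in CAC, against 114, 94.5, 81.4, 107 and 61.4 TPM in Con. CAC replicates 2 and 4 were high. The other 3 lay just above the Con range for Trim63 and reached into it for Fbxo32, and neither was called (log2 change 1.13 ± 0.50, adjusted p = 0.0871 and log2 change 1.10 ± 0.49, adjusted p = 0.0854, in that order). Trim72, a muscle ligase and membrane repair protein named here after its values were seen, had the second lowest p of the table. It stood at 308, 331, 379, 321 and 426 TPM in CAC, against 191, 167, 155, 145 and 139.7 TPM in Con, apart from Con in every library (log2 change 1.14 ± 0.11, adjusted p = 1.29e-10).

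Of 42 proteasome subunits, 10 rose and 0 fell, beside 23.0% of all genes higher. Their median log2 change was 0.22, beside 0.17 for all genes. After rescaling 0 rose and 1 fell, and 1 rose without CAC replicate 2. Psma3 stood at 89.7, 110.0, 84.4, 87.8 and 91.3 TPM in CAC, against 69.1, 69.2, 72.8, 70.1 and 74.2 TPM in Con, above Con in each library (log2 change 0.37 ± 0.08, adjusted p = 0.00145), but was not called after rescaling (0.17 at adjusted p = 0.105). Autophagy was similar, with 12 of 37 genes higher and 0 lower, beside the same 23.0% of all genes higher. After rescaling 1 rose and 1 fell. The riser, also the only one without CAC replicate 2, was Map1lc3b, whose product coats autophagosomes. It stood at 121, 249, 119, 165 and 109 TPM in CAC, against 78.8, 67.5, 79.6, 78.2 and 89.9 TPM in Con, all above Con (log2 change 0.88 ± 0.21, adjusted p = 0.00252). Of 38 lysosomal genes 20 rose and 0 fell (median log2 change 0.32); after rescaling 5 rose and 1 fell, and without CAC replicate 2 5 rose. The membrane protein Lamp2 stood at 20.9, 47.03, 22.6, 27.9 and 20.8 TPM in CAC, against 12.5, 14.7, 13.05, 13.1 and 15.3 TPM in Con. Lgmn, a cysteine protease, stood at 42.8, 60.4, 54.6, 53.2 and 69.2 TPM in CAC, against 28.5, 27.5, 27.3, 22.02 and 26.5 TPM in Con. Both separated the groups in every library, Lamp2 by 0.90 (adjusted p = 0.000127) and Lgmn by 1.05 (adjusted p = 0.000572), as did Cd63 by 0.83 (adjusted p = 0.00029).

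**Figure D3:**
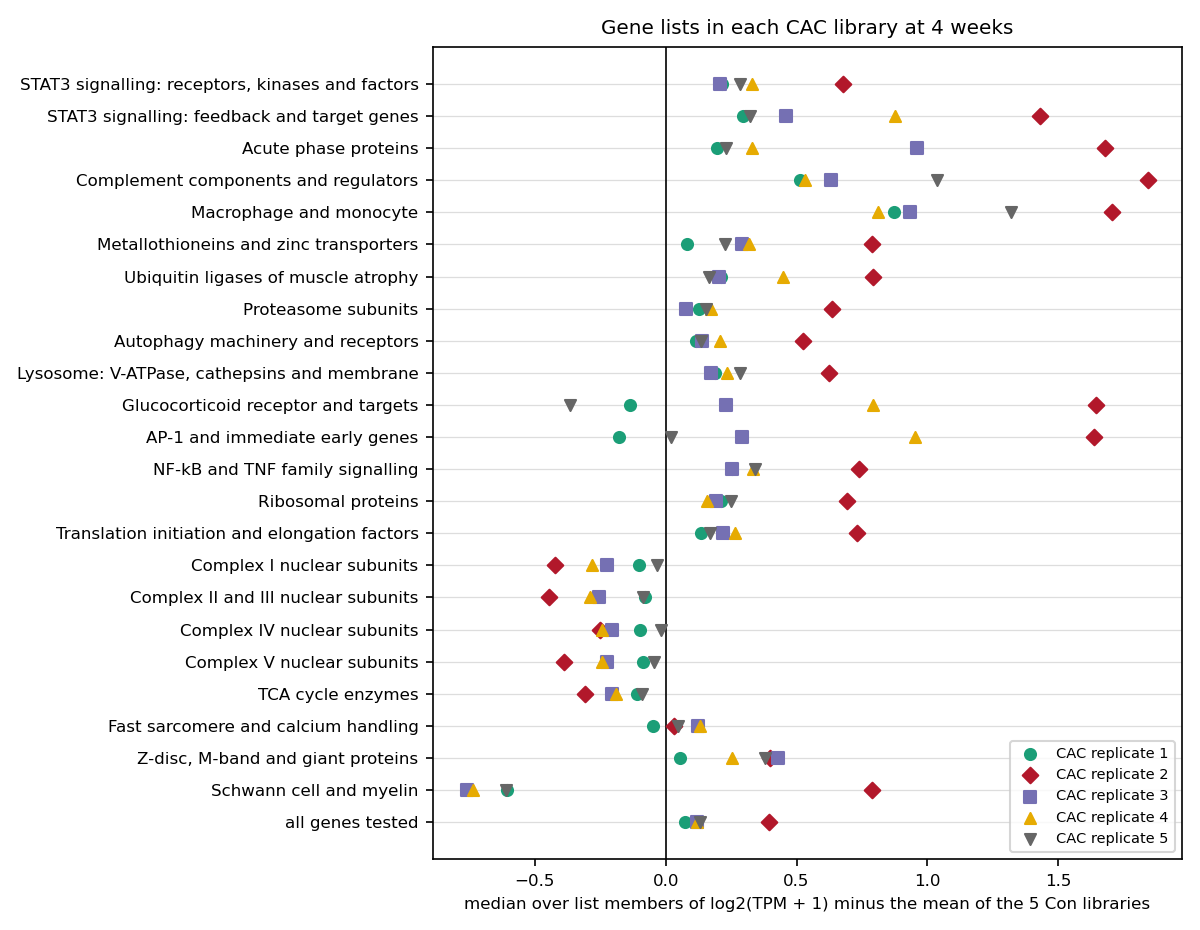
Median over the tested members of each gene list of log2(TPM + 1) minus the mean of the 5 Con libraries, for each of the 5 CAC libraries. CAC replicate 2 lies outermost in most lists, and for glucocorticoid targets the 5 libraries run between −0.36 and 1.64.

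Glucocorticoid targets had the widest range of CAC library medians of all lists with a tested gene. Of 24 genes tested 3 rose and 0 fell (median log2 change 0.49), beside 23.0% of all genes higher. After rescaling 2 rose, and without CAC replicate 2 2 did. The list's median lay at −0.14, 1.64, 0.23, 0.79 and −0.36 relative to the Con mean in CAC replicates 1 to 5. Fkbp5, a classic target that binds the receptor complex, stood at 13.5, 149.9, 21.4, 59.7 and 5.87 TPM in CAC, against 5.25, 5.51, 13.5, 25.8 and 41.6 TPM in Con. It was high in CAC replicates 2 and 4 and in Con replicates 5 and 4, and not called (log2 change 0.99 ± 0.67, adjusted p = 0.263). Tsc22d3 (GILZ), another target, stood at 66.8, 279.9, 130.4, 205 and 53.1 TPM in CAC, against 39.3, 62.6, 79.1, 107 and 180.3 TPM in Con, highest in CAC replicates 2 and 4 and Con replicate 5, and not called (log2 change 0.56 ± 0.37, adjusted p = 0.247). The kinase Pdk4, which shuts pyruvate out of the citric acid cycle, stood at 272, 1842, 494, 1239 and 222 TPM in CAC, against 236, 332, 429, 427 and 233 TPM in Con and was not called either (log2 change 0.87 ± 0.51, adjusted p = 0.192). The called genes were Lpin1, a phosphatidate phosphatase, Hsd11b1, which regenerates active glucocorticoid, and the receptor Nr3c1. Lpin1 stood at 115, 230.3, 158, 169 and 139 TPM in CAC, against 69.8, 78.6, 86.4, 77.4 and 90.1 TPM in Con, all above Con (log2 change 0.97 ± 0.20, adjusted p = 0.000564). Hsd11b1 rose by 1.03 (adjusted p = 0.00134); Nr3c1 rose by 0.35 (adjusted p = 0.0362) but neither once rescaled (0.15 at adjusted p = 0.453) nor without CAC replicate 2 (adjusted p = 0.106).

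Among 28 FoxO, growth arrest and DNA damage genes, 6 rose and 2 fell, a share of rises near the 23.0% of all genes. After rescaling 3 rose and 2 fell, and without CAC replicate 2 2 rose and 0 fell. Eda2r, a receptor of the TNF family, stood at 5.82, 14.8, 7.58, 11.2 and 5.56 TPM in CAC, against 3.13, 3.93, 3.26, 2.27 and 1.73 TPM in Con. It was up in every CAC library (log2 change 1.32 ± 0.28, adjusted p = 0.000821). Eif4ebp1, a translational repressor, stood at 141, 613, 140.3, 258 and 129 TPM in CAC, against 84.7, 71.03, 88.1, 85.8 and 102 TPM in Con, also without overlap (log2 change 1.28 ± 0.37, adjusted p = 0.0107), though its call needed CAC replicate 2 (0.90 at adjusted p = 0.121 without it). Trp53inp2, which promotes autophagy in muscle, fell to 95.7, 64.01, 109, 82.8 and 119.6 TPM in CAC, against 171, 148, 142, 143 and 136 TPM in Con (log2 change −0.68 ± 0.19, adjusted p = 0.00825), and was not called without CAC replicate 2 (−0.55 at adjusted p = 0.0752).

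Of 23 immediate early genes 7 rose and 0 fell, beside 23.0% of all genes higher. After rescaling 3 rose, beside 7.43% of all genes, and without CAC replicate 2 2 rose, beside 5.72%. Junb, which is known to maintain muscle mass, stood at 39.2, 108, 35.5, 60.9 and 60.7 TPM in CAC, against 12.1, 16.7, 7.22, 7.19 and 5.22 TPM in Con, all above Con (log2 change 2.52 ± 0.35, adjusted p = 1.51e-06). Fos rose by 1.27 (adjusted p = 0.0238) with overlapping libraries, and not without CAC replicate 2 (0.97 at adjusted p = 0.166). In the NF-kB and TNF list 14 of 26 rose and 0 fell (median log2 change 0.39), 9 after rescaling and 7 without CAC replicate 2. The TNF receptor Tnfrsf1a stood at 34.4, 57.6, 35.5, 42.6 and 39.7 TPM in CAC, against 24.4, 21.5, 17.9, 17.2 and 20.5 TPM in Con. The interleukin-1 receptor Il1r1 stood at 3.25, 5.95, 3.403, 4.68 and 2.43 TPM in CAC, against 1.52, 1.65, 1.14, 1.09 and 1.47 TPM in Con. Both were up in every CAC library (log2 change 1.00 ± 0.16, adjusted p = 3.41e-05, and log2 change 1.02 ± 0.18, adjusted p = 0.000106, in that order), as was Tlr4 (log2 change 0.76 ± 0.16, adjusted p = 0.000837). The ligands Tnf and Il1b were near 0: Tnf averaged 0.0893 TPM in CAC and 0.130 TPM in Con, and Il1b 0.286 TPM in CAC and 0.220 TPM in Con. The interferon list was close to the average gene, with 5 of 37 higher and 0 lower, 4 higher both after rescaling and without CAC replicate 2, and a median log2 change of 0.11. Among those 5 were the membrane proteins Ifitm2 (log2 change 0.92 ± 0.18, adjusted p = 0.000366) and Ifitm3 (log2 change 0.95 ± 0.19, adjusted p = 0.000564) and the factor Irf9 (log2 change 0.67 ± 0.14, adjusted p = 0.000662), all called without CAC replicate 2 too.

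Respiratory genes were the main group that fell. Of 83 nuclear-encoded subunits of complexes I to V, 48 fell and 0 rose, against 2.38% of all genes lower; after rescaling 68 fell, and without CAC replicate 2 6 did. By complex, 22 of 37 subunits fell in complex I, 8 of 14 in complexes II and III, 7 of 15 in complex IV and 11 of 17 in complex V, with median log2 changes of −0.21, −0.22, −0.16 and −0.20 in that order. The changes were small. Ndufa10 of complex I stood at 206, 184, 195, 197 and 211 TPM in CAC, against 245, 231, 235, 245 and 252 TPM in Con. Every CAC library was lower (log2 change −0.28 ± 0.07, adjusted p = 0.00196). Cox5a of complex IV stood at 1027, 884, 961, 1015 and 1216 TPM in CAC, against 1445, 1292, 1242, 1392 and 1372 TPM in Con. Atp5g1, a ring subunit of the ATP synthase, stood at 148, 119, 133, 127 and 140.2 TPM in CAC, against 169.9, 159, 188, 186 and 211 TPM in Con. Both were lower in every CAC library (log2 change −0.41 ± 0.09, adjusted p = 0.00146, and log2 change −0.45 ± 0.11, adjusted p = 0.0022, in that order), and these 3 kept their call without CAC replicate 2. Cyc1 of complex III fell by 0.41 (adjusted p = 0.00778) and Sdhb of complex II by 0.32 (adjusted p = 0.0112), and neither was called without it (adjusted p = 0.0878 and adjusted p = 0.0719). In the other CAC libraries the median of complex I lay at −0.10, −0.22, −0.28 and −0.03 in replicates 1, 3, 4 and 5, beside −0.42 in replicate 2.

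Of the 13 genes of the mitochondrial genome 4 fell and 0 rose, 8 after rescaling and 0 without CAC replicate 2. mt-Co2, a core subunit of complex IV, stood at 44399.5, 31639, 39994, 39096 and 39283 TPM in CAC, against 45497, 48901, 44446, 51881 and 44939 TPM in Con; the highest CAC library was just below the lowest Con library (log2 change −0.28 ± 0.09, adjusted p = 0.019). In the citric acid cycle 9 of 20 fell and 0 rose, 16 after rescaling and 3 without CAC replicate 2. Citrate synthase, Cs, stood at 545, 516, 551, 550.0 and 586 TPM in CAC, against 684, 633, 645, 646 and 663 TPM in Con, all below Con (log2 change −0.25 ± 0.06, adjusted p = 0.00145). Suclg1 stood at 118, 95.2, 111, 109.9 and 124 TPM in CAC, against 144, 129, 135, 142 and 146 TPM in Con, also below (log2 change −0.32 ± 0.06, adjusted p = 0.000293). Of 21 regulators of mitochondrial biogenesis 2 rose and 2 fell, beside 23.0% of all genes higher and 2.38% lower. After rescaling 1 rose and 4 fell, and without CAC replicate 2 1 rose and 0 fell. Ppargc1a (PGC-1α), the main coactivator, stood at 7.45, 13.6, 23.1, 14.02 and 7.54 TPM in CAC, against 5.605, 8.48, 6.96, 11.2 and 7.11 TPM in Con, overlapping (log2 change 0.59 ± 0.29, adjusted p = 0.126). Prkaa2, the catalytic AMPK subunit of muscle, rose by 0.75 (adjusted p = 0.000366). Perm1 fell by 0.49 (adjusted p = 0.0434), a call that ended without CAC replicate 2 (adjusted p = 0.196). The call also ended without CAC replicate 1 or 4, or Con replicate 1, 2, 4 or 5.

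**Figure D4:**
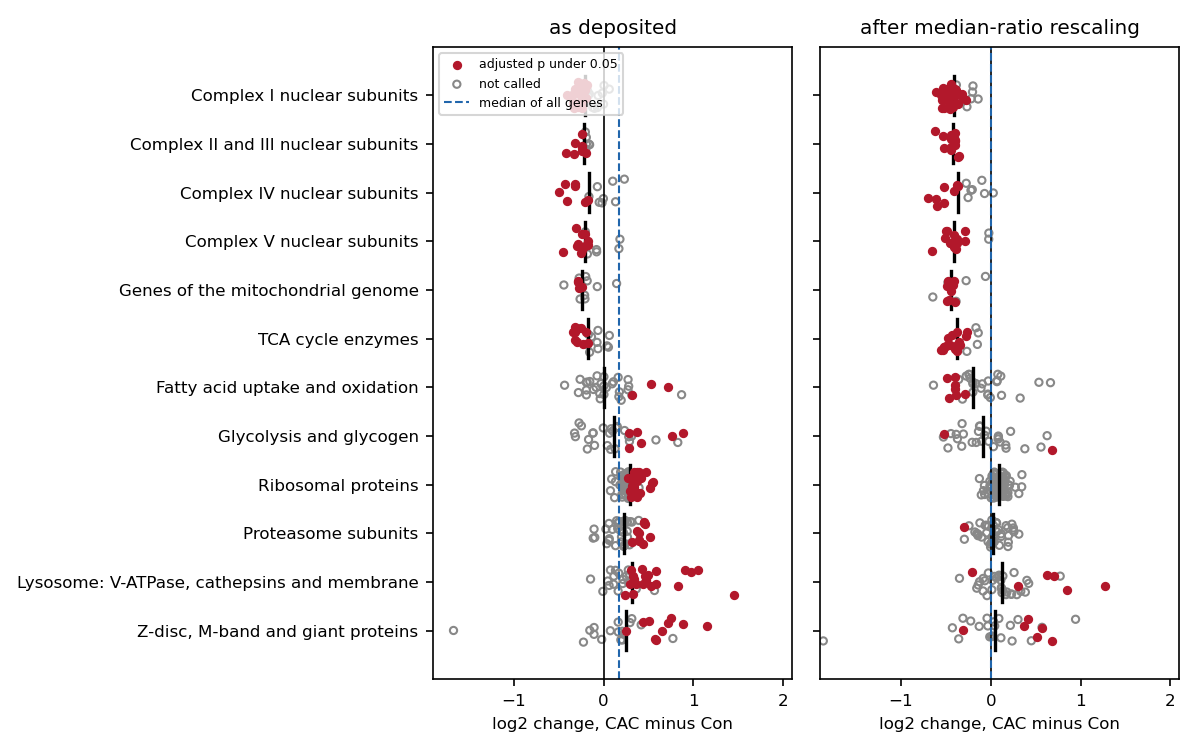
Log2 change (CAC minus Con) of each tested member of 12 gene lists, as deposited and after median-ratio rescaling; red points passed an adjusted p of 0.05, thick bars are list medians and the dashed line is the median of all genes. Respiratory and citric acid cycle genes lie below all genes in both panels, while ribosomal and proteasome genes lie near the dashed line once rescaled.

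Of 32 genes of fatty acid uptake and oxidation 3 rose and 0 fell (median log2 change 0.00), beside 23.0% of all genes higher; after rescaling 0 rose and 7 fell, and without CAC replicate 2 0 were called. Of 30 glycolysis and glycogen genes 6 rose and 0 fell, a share near that of all genes; after rescaling 1 rose and 1 fell, and without CAC replicate 2 2 rose. Ppp1r3a, which targets a phosphatase to glycogen, stood at 80.9, 161, 103, 102 and 78.9 TPM in CAC, against 40.3, 66.5, 67.9, 55.7 and 48.3 TPM in Con, all above Con (log2 change 0.88 ± 0.16, adjusted p = 0.000144). The muscle fructose bisphosphatase Fbp2 rose by 0.76 (adjusted p = 0.00441), but not once rescaled (0.56 at adjusted p = 0.0518). Among 32 genes of polyamine, creatine and amino acid metabolism 3 rose and 2 fell, beside 23.0% of all genes higher and 2.38% lower. After rescaling 2 rose and 4 fell, and without CAC replicate 2 1 rose and 0 fell. Slc3a2, the heavy chain of amino acid exchangers, rose by 0.64 (adjusted p = 0.00131), the leucine carrier Slc43a1 by 1.20 (adjusted p = 0.00906), and the mitochondrial creatine kinase Ckmt2 fell by 0.58 (adjusted p = 0.0223). Without CAC replicate 2, Slc43a1 (adjusted p = 0.109) and Ckmt2 (adjusted p = 0.167) did not pass.

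Of 79 ribosomal proteins, 33 rose and 0 fell (median log2 change 0.30), but 0 were called after rescaling and 0 without CAC replicate 2. In the 5 CAC libraries the list's median lay at 0.21, 0.69, 0.19, 0.16 and 0.25. Rps9 stood at 282, 431, 312, 302 and 315 TPM in CAC, against 254, 229.9, 245, 240.0 and 292 TPM in Con, with CAC replicate 2 the highest (log2 change 0.37 ± 0.11, adjusted p = 0.0158). Of 40 initiation and elongation factors 22 rose and 0 fell, 5 after rescaling and 6 without CAC replicate 2. Eif1a, which helps scan for the start codon, stood at 11.4, 21.6, 11.2, 12.9 and 10.3 TPM in CAC, against 5.81, 6.54, 5.11, 6.64 and 6.55 TPM in Con, all above Con (log2 change 0.98 ± 0.16, adjusted p = 3.98e-05). Eef2, which moves the ribosome along, stood at 1332, 2480.2, 1666, 1655 and 1447 TPM in CAC, against 1187, 982, 1134, 1024 and 1149.6 TPM in Con, likewise (log2 change 0.62 ± 0.15, adjusted p = 0.00337). In the endoplasmic reticulum stress list 13 of 27 rose and 0 fell, 3 after rescaling and 0 without CAC replicate 2; Dnajb9, a cochaperone there, rose by 0.73 (adjusted p = 0.00665).

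Of 20 fast sarcomere and calcium genes 2 rose and 0 fell, and of 14 slow sarcomere genes 1 rose and 0 fell, beside 23.0% of all genes higher. After rescaling 0 fast genes rose and 1 fell and 0 slow genes were called, and without CAC replicate 2 0 of either list were called. The main fast myosin, Myh4, had a mean and SD of 13122 ± 1419 TPM in CAC and 12511 ± 1880.1 TPM in Con, overlapping throughout (log2 change 0.07 ± 0.13, adjusted p = 0.689). The calcium store protein Casq1 stood at 2663, 706, 2920.4, 2276 and 3129 TPM in CAC, against 3280.1, 3333, 4136, 2659.8 and 3444 TPM in Con. CAC replicate 2 was far below all others and the gene was not called (log2 change −0.68 ± 0.36, adjusted p = 0.15). The parvalbumin gene Pvalb, a calcium buffer of fast fibres, stood at 14822, 7163, 14444, 14255 and 15513 TPM in CAC, against 16850.3, 14576, 19487, 14891 and 18495 TPM in Con, with the same library lowest (log2 change −0.39 ± 0.25, adjusted p = 0.225). The calcium pump Atp2a1 rose by 0.31 (adjusted p = 0.0272), but not once rescaled (0.11 at adjusted p = 0.56) or without CAC replicate 2 (0.25 at adjusted p = 0.162).

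Several scaffold genes rose. Of 27 Z-disc, M-band and giant protein genes 10 rose and 0 fell (median log2 change 0.25), 5 rose and 1 fell after rescaling, and 6 rose without CAC replicate 2. Desmin, Des, the intermediate filament of the Z-disc, stood at 2091, 3154, 2814, 2690.1 and 2442 TPM in CAC, against 1751, 1674, 1672, 1291 and 1614 TPM in Con, all above Con (log2 change 0.72 ± 0.17, adjusted p = 0.0024). Flnc, a filamin of the Z-disc, stood at 154, 342, 300.0, 224 and 228 TPM in CAC, against 148, 142, 116, 143 and 104 TPM in Con (log2 change 0.89 ± 0.21, adjusted p = 0.00286), also without overlap. Nebulin, Neb, rose by 0.57 (adjusted p = 0.000853) and titin, Ttn, by 0.51 (adjusted p = 0.00291), both with an overlap between the groups. Titin was not called once rescaled (0.30 at adjusted p = 0.0684), and nebulin was not called in a fit of only the groups compared (adjusted p = 0.0556). Of 20 genes of the neuromuscular junction and denervation 3 rose and 1 fell, beside 23.0% of all genes higher and 2.38% lower. After rescaling 1 rose and 2 fell, and without CAC replicate 2 1 rose and 0 fell. The acetylcholine receptor subunit Chrna1 stood at 14.8, 22.5, 17.2, 21.5 and 16.2 TPM in CAC, against 9.43, 8.66, 9.69, 8.37 and 9.63 TPM in Con; the groups did not overlap (log2 change 0.92 ± 0.28, adjusted p = 0.016), and the call was lost without CAC replicate 2 (0.85 at adjusted p = 0.0785) and after rescaling (0.73 at adjusted p = 0.0507). Of 20 satellite cell and myogenic genes 4 rose and 0 fell, beside 23.0% of all genes higher. After rescaling 1 rose and 1 fell, and without CAC replicate 2 1 rose. Myf6 (MRF4), the myogenic factor of mature fibres, stood at 98.6, 221, 170.3, 212 and 144 TPM in CAC, against 79.4, 69.9, 79.3, 91.4 and 73.4 TPM in Con, all above Con (log2 change 1.04 ± 0.21, adjusted p = 0.000496).

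Several genes of BMP and activin signalling rose. Of 25 genes of the myostatin and activin pathway 12 rose and 1 fell (median log2 change 0.38), 8 rose and 3 fell after rescaling, and 7 rose and 0 fell without CAC replicate 2. Noggin, Nog, a secreted trap for BMPs, stood at 15.8, 20.5, 14.5, 17.9 and 15.2 TPM in CAC, against 6.61, 4.26, 3.698, 4.53 and 3.52 TPM in Con. Its CAC libraries were close together and all above Con (log2 change 1.70 ± 0.27, adjusted p = 1.72e-05). The ligand Bmp4 stood at 6.43, 10.6, 7.72, 7.57 and 7.42 TPM in CAC, against 4.71, 3.14, 3.705, 3.301 and 4.99 TPM in Con, also higher (log2 change 0.85 ± 0.14, adjusted p = 5.17e-05), and so was the activin and myostatin receptor Acvr2b, at 6.36, 8.51, 7.05, 7.18 and 9.53 TPM in CAC, against 4.12, 5.44, 4.35, 2.95 and 2.68 TPM in Con (log2 change 0.85 ± 0.15, adjusted p = 0.000145). Tgfbr2 rose by 0.88 (adjusted p = 0.00131). Myostatin itself, Mstn, stood at 22.1, 56.1, 39.1, 43.7 and 26.3 TPM in CAC, against 14.2, 24.7, 31.2, 20.5 and 24.9 TPM in Con, overlapping; its rise (log2 change 0.64 ± 0.21, adjusted p = 0.021) was not called without CAC replicate 2 (0.48 at adjusted p = 0.159). Of 26 IGF and insulin genes 9 rose and 0 fell, beside 23.0% of all genes higher. After rescaling 3 rose, and without CAC replicate 2 0 did. Igf1r rose by 0.62 (adjusted p = 0.0106).

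Of 15 myokines tested, 4 rose and 3 fell, beside 23.0% of all genes higher and 2.38% lower. After rescaling 2 rose and 5 fell, and without CAC replicate 2 1 rose and 1 fell. Metrn (meteorin), a secreted protein, stood at 26.6, 14.1, 23.98, 19.6 and 28.4 TPM in CAC, against 50.01, 34.7, 45.01, 45.1 and 39.02 TPM in Con. Every CAC library was lower (log2 change −0.92 ± 0.17, adjusted p = 0.000128), also without CAC replicate 2 (−0.77 at adjusted p = 0.00284). Apln (apelin) stood at 0.809, 0.184, 0.671, 0.658 and 0.734 TPM in CAC, against 2.39, 2.56, 1.35, 0.927 and 1.25 TPM in Con, lower in every CAC library (log2 change −0.71 ± 0.19, adjusted p = 0.00695), but not called without CAC replicate 2 (−0.61 at adjusted p = 0.0587). Decorin, Dcn, a small matrix proteoglycan, rose by 0.80 (adjusted p = 0.00416). Among 26 antioxidant genes 12 rose and 0 fell, 5 rose and 3 fell after rescaling, and 4 rose without CAC replicate 2. Gpx3, a secreted glutathione peroxidase, stood at 661, 1279, 576, 687 and 567 TPM in CAC, against 312, 296, 230.3, 354 and 359 TPM in Con, all above Con (log2 change 1.22 ± 0.27, adjusted p = 0.00114), and Nfe2l2 (NRF2) rose by 0.84 (adjusted p = 0.000778).

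Of 20 collagens 0 rose and 1 fell, as after rescaling, and 0 were called without CAC replicate 2. Of 32 matrix proteases, inhibitors and cross-linkers 6 rose and 0 fell, near the 23.0% of all genes higher; after rescaling 5 rose and 1 fell, beside 7.43% of all genes higher, and without CAC replicate 2 4 rose. Lysyl oxidase, Lox, which cross-links collagen, stood at 15.9, 29.6, 8.71, 15.9 and 7.09 TPM in CAC, against 2.601, 2.55, 1.97, 1.96 and 5.99 TPM in Con, all above Con (log2 change 1.96 ± 0.36, adjusted p = 0.000159). The fibrillar collagen Col1a1 stood at 54.9, 19.6, 41.2, 35.4 and 77.97 TPM in CAC, against 61.4, 50.5, 63.97, 31.7 and 77.7 TPM in Con, overlapping (log2 change −0.39 ± 0.52, adjusted p = 0.596). Of 18 markers of fibro-adipogenic progenitors and fibroblasts, 5 rose and 0 fell, 3 after rescaling and 2 without CAC replicate 2; Pdgfra rose by 0.70 (adjusted p = 0.00897; adjusted p = 0.0677 without CAC replicate 2), and the summed TPM was 1688 to 2176 in CAC, 1309.9 to 1806 in NCAC and 1095 to 2067 in Con, overlapping. The part of these cells in the rise of Lox was not tested.

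Some smooth muscle genes were low at this week. Of 14 markers tested 4 fell and 1 rose; the riser was Des, which fibres also express. After rescaling 6 fell and 1 rose, and without CAC replicate 2, 2 fell and 1 rose. Myh11, the smooth muscle myosin, stood at 10.5, 6.42, 7.49, 8.86 and 6.01 TPM in CAC, against 24.1, 17.03, 12.9, 19.4 and 15.1 TPM in Con. Cnn1 (calponin) stood at 1.203, 0.464, 0.602, 0.696 and 0.799 TPM in CAC, against 5.51, 2.52, 1.34, 3.44 and 1.6996 TPM in Con. Acta2, the smooth muscle actin, stood at 50.4, 38.3, 38.8, 41.2 and 29.9 TPM in CAC, against 119, 82.6, 48.2, 73.4 and 63.8 TPM in Con. Myh11 and Cnn1 were lower in every CAC library. The log2 change was −1.07 ± 0.27 (adjusted p = 0.0043) for Myh11 and −1.07 ± 0.28 (adjusted p = 0.00471) for Cnn1. For Acta2 the highest CAC library reached into the Con range (log2 change −0.90 ± 0.31, adjusted p = 0.0269). Its call was lost without CAC replicate 2 (−0.89 at adjusted p = 0.0884), and also without CAC replicate 5 or Con replicate 1 or 2. Myl9, a light chain, fell by 0.85 (adjusted p = 0.00238), although it is no member of that list. The sum of the markers without Des was 283 to 333 TPM in CAC, 266 to 414 TPM in NCAC and 305 to 513 TPM in Con, so the totals overlapped. Endothelial markers were not called in either direction (0 of 15), and Pecam1 was among them (log2 change 0.21 ± 0.14, adjusted p = 0.25). Schwann cell and myelin genes were also not called (0 of 14), though only 1 of the 14 had a change above 0. Their median log2 change was −0.37, or −0.65 without CAC replicate 2, and −0.38 for NCAC against Con. Their summed TPM was 104 to 434 in CAC, 104 to 269 in NCAC and 96.6 to 479.6 in Con, highest in CAC replicate 2 and Con replicate 5 of their groups.

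Beyond the lists, 4 of the largest changes had no role assigned. Atp9a, a phospholipid flippase of endosomes, stood at 57.1, 64.7, 57.1, 57.5 and 50.1 TPM in CAC, against 12.3, 15.4, 12.9, 10.3 and 10.99 TPM in Con. The CAC libraries were nearly alike (log2 change 2.13 ± 0.22, adjusted p = 9.06e-10). Tmem176b, a membrane protein of immune cells, stood at 38.1, 82.2, 49.1, 41.1 and 45.4 TPM in CAC, against 10.9, 9.07, 10.1, 9.27 and 13.3 TPM in Con (log2 change 2.14 ± 0.25, adjusted p = 5.44e-08), and the retinoic acid enzyme Aldh1a2 stood at 8.23, 10.3, 21.8, 11.5 and 19.7 TPM in CAC, against 2.42, 3.43, 1.697, 1.73 and 1.58 TPM in Con (log2 change 2.21 ± 0.41, adjusted p = 0.000207). Both were up in every CAC library. Mical2, which oxidises actin, was among the largest falls, at 22.1, 10.1, 21.8, 18.7 and 14.7 TPM in CAC, against 28.5, 32.4, 36.4, 24.3 and 41.97 TPM in Con (log2 change −0.89 ± 0.15, adjusted p = 5.21e-05). All 4 remained called without CAC replicate 2.

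NCAC against Con gave 0 calls at this week by limma (224 genes at an unadjusted p under 0.05, 180 higher and 44 lower). CAC against NCAC gave 2435 calls, 2238 higher (18.1%) and 197 lower (1.59%); this comparison shares the CAC libraries with the one above. It gave 1000 calls after rescaling, 431 in a fit of only the groups compared and 274 without CAC replicate 2. The STAT3 genes stood low in NCAC. Stat3 was 13.1, 12.2, 10.7, 10.7 and 12.7 TPM and Socs3 was 5.83, 2.59, 4.92, 5.15 and 4.06 TPM in the 5 NCAC libraries. On the log2 scale CAC exceeded NCAC by 1.76 ± 0.13 at adjusted p = 4.63e-15 for Stat3 and by 3.38 ± 0.42 at adjusted p = 1.74e-07 for Socs3. Against NCAC, 17 of the 83 respiratory subunits fell and 1 rose. Ighm in NCAC, at 46.5, 103, 47.6, 138 and 137 TPM, was above all CAC libraries (CAC minus NCAC −2.22 ± 0.50 at adjusted p = 0.00321). For the smooth muscle gene Myh11, NCAC stood at 10.4, 14.8, 5.81, 12.9 and 18.4 TPM, overlapping both other groups, and CAC did not differ from it beyond the threshold (CAC minus NCAC −0.55 ± 0.27 at adjusted p = 0.13).

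Week 4 lay between weeks 2 and 6 in the number of calls. CAC against Con gave 35 calls at 2 weeks (0.283%), 3134 at 4 weeks and 7069 at 6 weeks (57.2%), 6400 of them higher (51.8%). The test of the difference between the effects called 0 genes between 2 and 4 weeks (483 at an unadjusted p under 0.05, smallest adjusted p = 0.905) and 0 between 4 and 6 weeks (1263 at an unadjusted p under 0.05, smallest adjusted p = 0.188). With array weights 176 genes were called for the change between 4 and 6 weeks, and without CAC replicate 2 there were 2, Tagln and Adcyap1r1. Stat3 and Socs3 were already called at 2 weeks (1.27 at adjusted p = 1.66e-09 and 2.29 at adjusted p = 0.00207) and had 1.89 at adjusted p = 2.38e-16 and 4.16 at adjusted p = 1.25e-10 at 6 weeks. Mt1 changed by 1.36 at adjusted p = 0.348 in week 2, by 2.77 in week 4 and by 5.11 at adjusted p = 5.66e-08 in week 6.

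**Figure D5:**
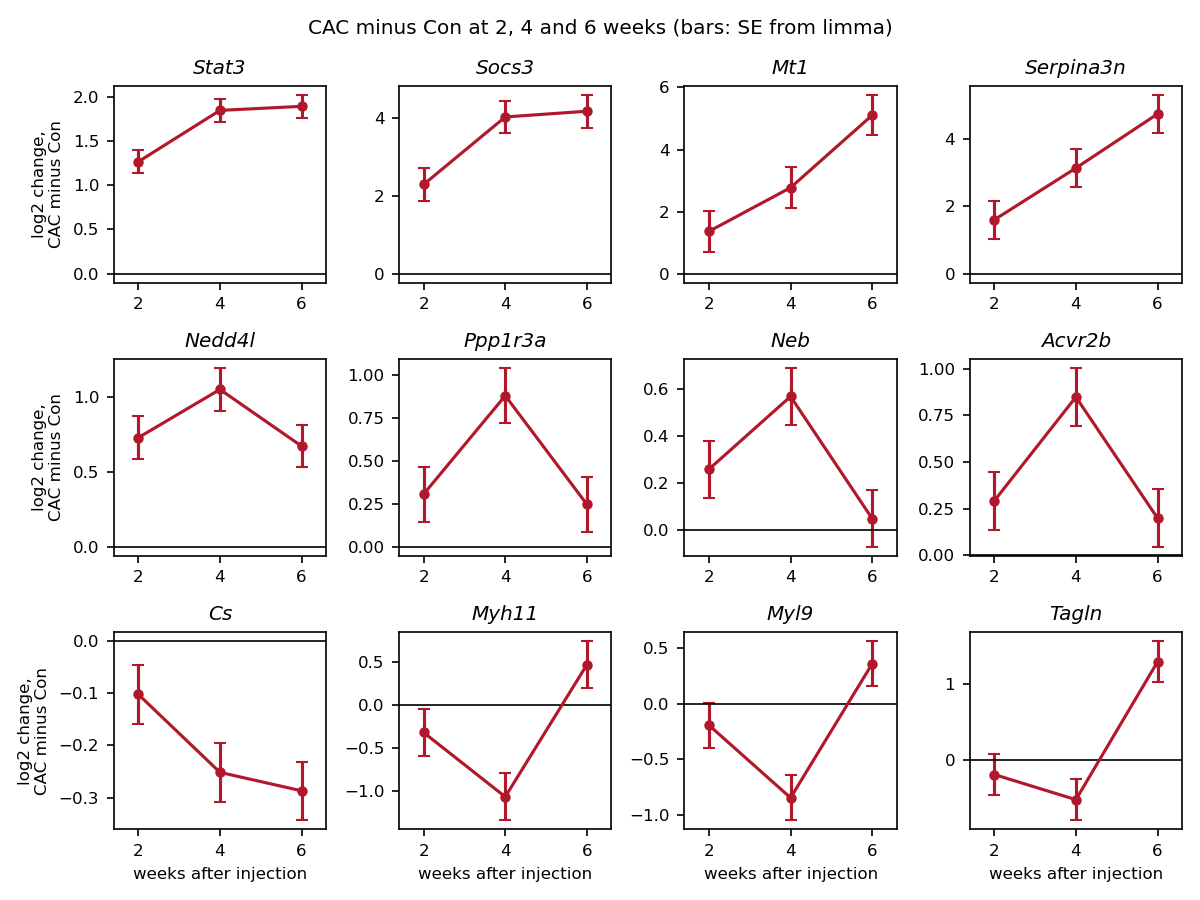
Log2 change (CAC minus Con) of 12 genes at 2, 4 and 6 weeks, with the SE from limma (n = 5 per group and week). Stat3 and Socs3 are similar at 4 and 6 weeks, Ppp1r3a, Neb and Acvr2b are highest at 4 weeks, and Myh11, Myl9 and Tagln are below 0 at 4 weeks and above 0 at 6 weeks.

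The estimated effect of several genes differed between 4 and 6 weeks. The main fit called 0 genes for that change, and some of those below were picked by its lowest p. Tagln, Myl9, Myh11, Acta2 and Cnn1 were among the 10 genes of lowest p for the change of effect between 4 and 6 weeks. Tagln, with the lowest, changed by −0.53 at 4 weeks (adjusted p = 0.135) and by 1.29 at adjusted p = 0.000165 at 6 weeks, a difference of 1.82 ± 0.38 at adjusted p = 0.188; without CAC replicate 2 that difference was 1.94 at adjusted p = 0.0476. For Myl9 the effect was −0.85 at 4 weeks and 0.36 at adjusted p = 0.122 at 6 weeks (difference 1.20 ± 0.28 at adjusted p = 0.246), and for Myh11 −1.07 and 0.47 at adjusted p = 0.134 (difference 1.54 ± 0.39 at adjusted p = 0.269). Neb, Acvr2b and Ppp1r3a were called at 4 weeks and not at 6 weeks, with effects at 6 weeks of 0.05 at adjusted p = 0.755, 0.20 at adjusted p = 0.266 and 0.25 at adjusted p = 0.179; their differences were −0.52 ± 0.17 at adjusted p = 0.384, −0.65 ± 0.22 at adjusted p = 0.392 and −0.63 ± 0.23 at adjusted p = 0.392, none past the threshold in this fit.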

How the data were processed

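The authors deposited 1 table of TPM values for 47643 gene symbols in 62 gastrocnemius libraries. Per the labels' protocols, poly(A) RNA was made into stranded libraries; the build is mm10, per the submitters' processing notes. Not given in the sources used here: aligner, counting tool and gene annotation. TPM keeps no read total, so depth is unknown; 17005 to 17729 genes were above 0 in each library of week 4.

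Groups came from the sample descriptions, because 1 treatment tag reads alike for every library. Genes with TPM of at least 1 in at least 5 of all libraries were tested (12364). Values were log2(TPM + 1), which understates the change of low genes. One limma model (limma 3.58.1 in R 4.3.3, trend) held the means of 12 groups over 62 libraries, so all groups shared 1 estimate of the spread. P-values are two-sided, adjusted by Benjamini-Hochberg over all genes tested, with a threshold of 0.05. The pipeline was tested on simulated data. The named genes come from a hand-written list of sentinels, the 12 largest called rises and 12 largest called falls without overlap and at least 5 TPM in a group, and the lists (all members up to 16 tested, otherwise the 5 called of lowest p per direction and the 3 most abundant); Trim72 was named after its values were seen. Members and lists were chosen with earlier results of these data known. Alternatives were rescaling by median ratio, other pseudocounts and filters, leaving out mitochondrial-genome genes, array weights, other sets of libraries, a replicate block and leaving out each replicate. Promoter windows came from RefSeq (GRCm38.p6).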

Additional observations from a re-analysis of the deposited data

Results flagged for a closer look

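Among the genes named, a library was listed when its gap to the nearest of the other 4, divided by the group's range of TPM, passed 0.71. Of 236 groups of 5 libraries tested, 32 did so, while chance gives about 5% of groups, and the genes share their libraries. CAC replicate 2 was the highest for Il33 (0.723), Hp (0.924), Serpina3n (0.822), Lbp (0.829), Lrg1 (0.754), Lcn2 (0.965), C4b (0.757), C3 (0.758), Cxcl13 (0.906), Mrc1 (0.789), Ftl1 (0.723), Trim63 (0.782), Fbxo32 (0.785), Psma3 (0.729), Lamp2 (0.729), Cd63 (0.711), Eif4ebp1 (0.734), Ifitm2 (0.717), Ppp1r3a (0.712), Rps9 (0.778), Eif1a (0.774), Tgfbr2 (0.718), Gpx3 (0.831) and Tmem176b (0.75). It was the lowest for Pvalb (0.849) and Apln (0.758). Con replicate 5 was the highest for Il33 (0.77), Cxcl13 (0.734), Mt1 (0.756), Mt2 (0.841), Dcn (0.828) and Lox (0.84). No other library was listed. What sets these libraries apart was not tested.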

How the results depend on the processing

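The genes called higher, lower, and in CAC against NCAC numbered 919, 964 and 1000 after median-ratio rescaling, and 1056, 104 and 431 in a fit of only the groups compared. Without genes of the mitochondrial genome 1261 were higher, and 758 were called against NCAC; with no filter on low values 1585 were called against NCAC. Whether replicate numbers pair the libraries is not known here. The deviations of CAC and Con libraries of like number correlated at 0.244, −0.0591, 0.237, 0.274 and −0.288 across genes, with no unlike pairs compared. With a replicate block in the fit of the groups compared, 1004 were higher, 97 lower and 298 called against NCAC. Leaving out 1 library gave 707 to 3341 genes higher, 51 to 376 lower and 274 to 3313 called against NCAC. The lowest of each came without CAC replicate 2; 178 were lower without CAC replicate 4, and 193, 191 and 189 without Con replicates 1, 4 and 5. The change of effect between 4 and 6 weeks gave 176 calls with array weights and 0 to 2 with 1 library left out; the 2, without CAC replicate 2, were Adcyap1r1 (1.02) and Tagln (1.94). That between 2 and 4 weeks gave 0 calls in every setting. Myh4 reversed to −0.13 after rescaling and −0.021 without genes of the mitochondrial genome. Among the calls lost without CAC replicate 2, some were also lost without other libraries. Of the 10 fits that left out 1 library, Il15 and Perm1 were called in 3 and Nr3c1 in 4. Cebpd was called in 5, Acta2 and Fos in 6, Mstn and Atp2a1 in 7, and Ckmt2 in 8. Of 101 genes named and called, 90 kept their call after rescaling, 79 without CAC replicate 2, 84 in the fit of only the groups compared and 81 with the block; the causes were not tested. Depth is unknown, so its part in these results cannot be judged. Values under 1 TPM are the least certain.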
